A study of Homo sapiens with 7 samples.

Results

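PICALM, ECT2 and MAP3K7 are 3 of the 14294 genes of the series. They were chosen by name, as genes studied as splicing targets of the RBFOX proteins, and their isoforms were found by the Ensembl stem of the gene ID. They comprised 213 of the 386982 isoforms in the table: 59 of PICALM, 59 of ECT2 and 95 of MAP3K7. Only 19 of the 213 carry a reference transcript ID (4, 3 and 12), while the others carry a hashed ID and are known by their 2 ends alone.

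The libraries are PacBio long-read libraries of polyadenylated RNA from HUES66, a human embryonic stem cell line in established use. In 6 of them isoforms of RBFOX2 were the target of Cas13d, an RNA-guided nuclease that cleaves RNA; they are called the G libraries here and carry the genotype RBFOX2 isoform KD with the labels G3 (id 178147), G5 (178149), G11 (178136), G12 (178135), G13 (178145) and G14 (178146). The labels do not say which isoform an id stands for, or whether the cells of a library were 1 clone. The control carries the genotype WT. All 7 were described as piggyBac, received doxycycline at 1 µg/ml and were taken at 24 h, and each group is 1 library, so no p-value was computed and no difference has a replicate check. All intervals are 95% intervals for counting error alone and treat each read as an independent draw. No molecular identifiers were used, so copies of 1 molecule would count as separate reads, and the intervals can be too narrow.

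RBFOX2 encodes a splicing regulator that binds the RNA word GCAUG. As background, RBFOX proteins bound in the intron downstream of an exon usually promote its inclusion, and bound upstream they usually promote its skipping. PICALM is a clathrin assembly protein that binds phosphoinositides in the plasma membrane and works in endocytosis. ECT2 is the guanine nucleotide exchange factor that activates RHOA at the cell equator for cytokinesis. MAP3K7 encodes TAK1, a kinase that acts with the TAB proteins to pass signals of TGF-β, cytokine and Toll-like receptors to the NF-κB and MAP kinase pathways.

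The exons below are the ones the isoform results turn on. They are internal coding exons that some listed isoforms of the gene hold and others skip (cassette exons), taken from GENCODE 29 transcripts on GRCh38 and written 5′ to 3′ with the cassette exon in capitals and 15 bases of each neighbouring exon in lower case. The ECT2 exon has 93 nt, or 31 codons, and lies on the plus strand at chr3:172755483-172755575. The MAP3K7 exon has 81 nt, or 27 codons, and lies on the minus strand at chr6:90544552-90544632. The PICALM exon has 24 nt, or 8 codons, and lies on the minus strand at chr11:85978070-85978093. All 3 lengths are multiples of 3, so the reading frame downstream is the same with and without the exon. The last sequence is the junction that ECT2 RNA has when the exon is skipped.
ECT2 93-nt exon: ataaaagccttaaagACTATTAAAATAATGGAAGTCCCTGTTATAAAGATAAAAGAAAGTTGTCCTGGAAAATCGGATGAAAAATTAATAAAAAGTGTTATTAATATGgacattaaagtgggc
MAP3K7 81-nt exon: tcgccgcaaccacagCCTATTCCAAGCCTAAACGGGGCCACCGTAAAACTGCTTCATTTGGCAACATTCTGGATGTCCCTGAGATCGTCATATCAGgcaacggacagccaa
PICALM 24-nt exon: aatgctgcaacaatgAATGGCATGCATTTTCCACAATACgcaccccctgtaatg
ECT2 junction without the exon: ataaaagccttaaaggacattaaagtgggc

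The letters GCATG were searched on the transcript strand within each exon. They occur once in the PICALM exon, and not in the ECT2 or the MAP3K7 exon. Among internal exons of the genes compared, the first 24 bases held GCATG in 1.96% of exons, the first 81 bases in 7.08% and the first 93 bases in 8.16%. The longer TGCATG was in none of the 3 exons and in 0.478%, 1.88% and 2.19% of those windows. The flanking introns, where RBFOX proteins are mostly known to bind, were not analysed here.

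The libraries held between 16801842 listed reads (control) and 26292182 (G12). Listing required at least 1 read in the control, so forms absent from the control contribute to no share and to no gene total. In G3, for example, 17516948 of 17848096 reads are listed. The RBFOX2 total was 107 TPM in the control, where TPM divides reads by the library's total and not by transcript length. It was 39.2% of the control in G3, 52.2% in G13, 77.3% in G11, 82.5% in G12, 90.3% in G5 and 98.6% in G14. The label of the cell line was checked on 10 embryonic stem cell markers, of which 9 were in the table and 8 had a mean of at least 5 TPM. POU5F1, a transcription factor of pluripotency, had 915 TPM in the control, and elsewhere from 377 (G14) to 588 TPM (G3). NANOG was also highest in the control, with 10.0 TPM against 3.49 (G14) to 5.54 TPM (G5). By contrast, DPPA4, L1TD1 and TDGF1 were lowest in the control, at 745, 18.2 and 37.6 TPM. LIN28A, LIN28B, ZFP42 and DNMT3B had G libraries both above and below the control, and SOX2 was not in the table. The 9 summed to 2077 TPM for the control and ranged from 1622 to 2057 TPM among the G libraries. Neural, mesoderm and endoderm markers (4 of 9 in the table) did not exceed 0.238 TPM in any library. Of the fibroblast markers, COL1A1 and COL1A2 together had 27.7 TPM in the control, with G libraries from 4.21 TPM (G13) to 38.5 TPM (G3), and their part in the results was not tested.

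Of the 3 genes, ECT2 differed most in exon use. All 6 G libraries held the 93-nt exon in a smaller share of reads than the control did, and G13 in the smallest. It was read from the 3 reference isoforms, which held 76.9% to 82.6% of the ECT2 reads of a library. ENST00000392692.8 holds the exon, while ENST00000232458.9 and ENST00000540509.5 skip it. The exon was held by 617 of 714 reads in the control, or 86.4% (Wilson interval 83.7 to 88.7). In G3 it was held by 715 of 886 reads, or 80.7% (78.0 to 83.2). The share was 77.7% in G11 (942 of 1213 reads, 75.2 to 79.9), 75.7% in G14 (1079 of 1426, 73.4 to 77.8), 75.3% in G5 (1199 of 1593, 73.1 to 77.3) and 74.6% in G12 (1070 of 1435, 72.2 to 76.8). G13 stood apart at 59.5% (764 of 1284, 56.8 to 62.2).

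In the order from high to low, the interval of the control did not overlap that of G3, the next library, and the interval of G12 did not overlap that of G13. Each of the other neighbours (G3 and G11, G11 and G14, G14 and G5, G5 and G12) had overlapping intervals. The differences from the control were -5.71 percentage points in G3, -8.76 in G11, -10.75 in G14, -11.15 in G5, -11.85 in G12 and -26.91 in G13. Against the median of the other 6 libraries, the difference of G13 was -17.16 points, a reference chosen after seeing the data.

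**Figure D1:**
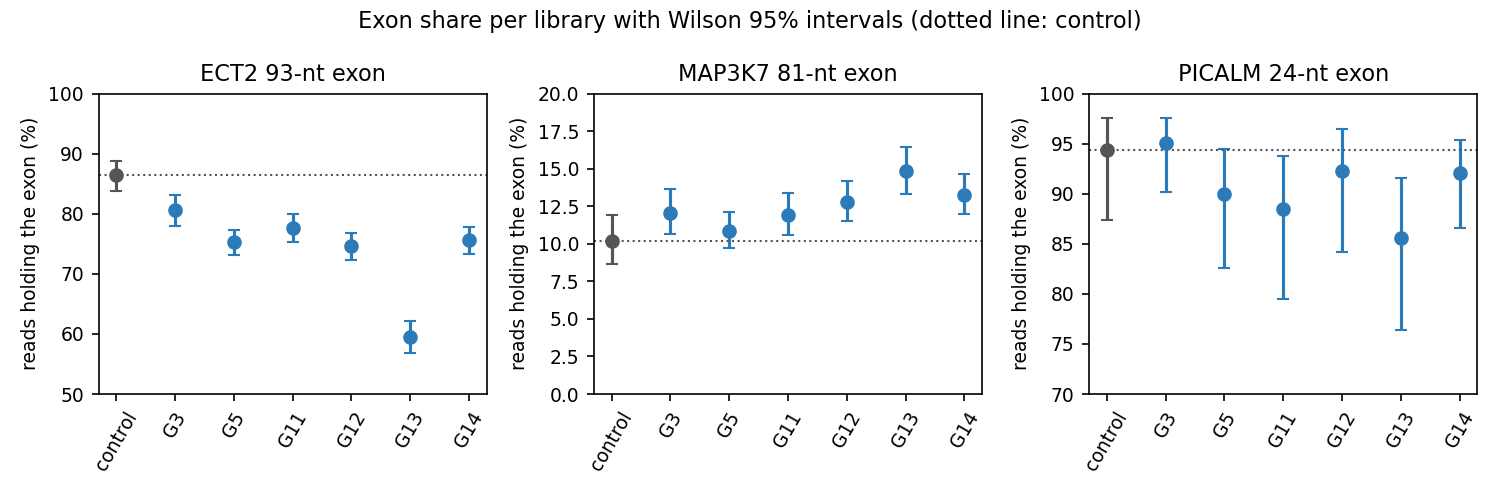
Share of reads holding the ECT2 93-nt, MAP3K7 81-nt and PICALM 24-nt exons (y axis, percent of reads of reference isoforms that hold or skip the exon) in the 7 libraries (x axis), with Wilson 95% intervals and the control as a dotted line; the y axes have different ranges and do not all start at 0. ECT2 runs from 86.4% in the control to 59.5% in G13, MAP3K7 runs from 10.2% to 14.8%, and the PICALM intervals are wide because they rest on 78 to 151 reads.

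These differences were set beside the same measure for every cassette exon of the table that had at least 50 reads holding or skipping it in each library. There were 6183 such exons in 3202 genes, and exons of 1 gene share their reads. A share at least 10 points below the control was seen in 0.421% of them in G3, and G13 (0.873%) and G14 (0.922%) had the most; the values were 0.566% for G5 and 0.501% for each of G11 and G12. The ECT2 exon passed this size in 4 of the 6 G libraries, G5, G12, G13 and G14. Counted from the most negative difference, it was among the lowest 6 of the 6183 exons in G13, the lowest 20 to 47 in G5, G11, G12 and G14, and the lowest 118 in G3. It was at least 5 points below the control in all 6 G libraries, which held for 16 exons or 0.259% (a size chosen after its values were seen). Because the 6 differences share the control, a control above all 6 G libraries was itself common, at 12% of exons.

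**Figure D2:**
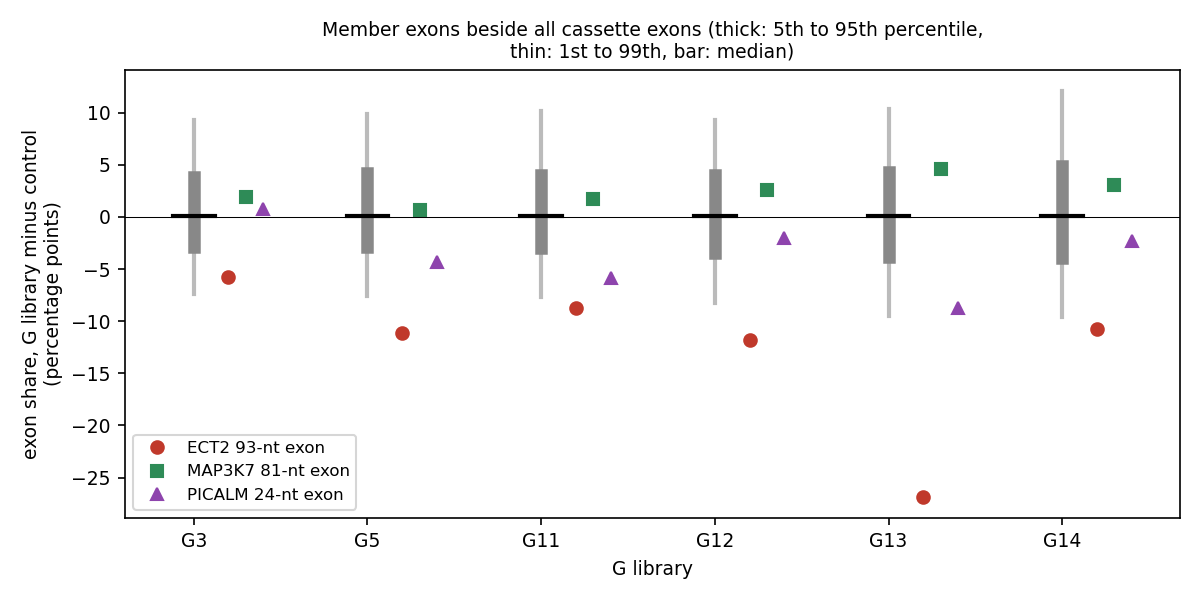
Difference in exon share between each G library (x axis) and the control (y axis, percentage points) for the ECT2 93-nt (circles), MAP3K7 81-nt (squares) and PICALM 24-nt (triangles) exons, beside the 5th to 95th (thick) and 1st to 99th (thin) percentiles and the median (bar) of 6183 cassette exons. The ECT2 circle lies below the 5th percentile in all 6 G libraries, from -5.71 points in G3 to -26.91 in G13.

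The level of each ECT2 form was then compared in TPM, with no other scaling. ENST00000232458.9, the main form without the exon, was lowest in the control with 5.59 TPM, followed by 9.08 TPM in G3, 12.5 in G11, 13.01 in G12, 14.5 in G5, 15.6 in G14 and 21.2 in G13. It was therefore 162% of the control in G3 (exact interval 125 to 211) and 380% in G13 (304 to 479), with the other 4 G libraries between 224% and 278%. ENST00000392692.8, the form with the exon, had 36.7 TPM in the control against 33.5 TPM in G13, which is 91.3% of the control (82.0 to 102). In the other 5 G libraries it was between 109% (G3, 97.8 to 122) and 140% (G14, 127 to 155). In TPM, the form without the exon was thus higher than the control beyond counting error in all 6 G libraries, and the form with it in G5, G11 and G14. Which form differed depends on the scaling. With a length and GC trend removed, added after seeing the data, the log2 ratio of the ECT2 total went from 0.308 to 0.093 in G13. It went from 0.452 to 0.158 in G5, 0.408 to 0.138 in G11 and 0.669 to 0.252 in G14. The single forms were not rescaled in this way. The annotated transcripts of these forms, 4158 and 4087 nt long, differ little in length.

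Less abundant ECT2 forms did not all follow this order. ENST00000540509.5 skips the 93-nt exon and holds an untranslated exon of 323 nt near its 5′ end (chr3:172752150-172752472). It had 3 reads in the control and 36 in G13, and between 9 and 26 reads in the other 5 G libraries. Of the reads that could show the 323-nt exon, 0.420% held it in the control (0.143 to 1.23) and 2.80% in G13 (2.03 to 3.86). The ECT2 hashed isoforms 6 and 7, numbered by their mean share among hashed ECT2 forms and chosen after their values were seen, had 3 and 5 reads in the control and 48 and 46 in G13. By contrast, ECT2 hashed isoform 1 differed most from the control in G11, at 6.67% of ECT2 reads against 4.09%, and ECT2 hashed isoform 3 in G14, at 4.44% against 2.80%; in G13 they held 2.31% and 1.79%. Their exons are not given in the table, so they enter no exon share. ECT2 reads had nearly all 1 start and 1 end: 97.6% to 98.7% started at chr3:172750685-172750797 and 99.6% to 99.9% ended at chr3:172821433-172821479.

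As a share of all ECT2 reads, ENST00000392692.8 was 66.5% in the control (63.4 to 69.5), 58.5% to 64.6% in 5 G libraries and 48.9% in G13 (46.5 to 51.4). ENST00000232458.9 was 10.1% (8.35 to 12.2) in the control, 14.6% to 19.4% in 5 G libraries and 31.0% (28.8 to 33.3) in G13. Only in G13 did either share differ from the control by at least 10 points. Among 17602 isoforms holding at least 5% of a compared gene, 7.88% were at least 10 points above the control in G13 and 3.44% at least 10 points below it. The shares above and below were 5.66% and 1.38% for G3, 5.43% and 1.49% for G5, 5.82% and 1.84% for G11, 5.90% and 2.06% for G12, and 7.99% and 3.45% for G14. The control holds more rare forms by construction of the table: rows with 1 control read made up 3.99% of ECT2 reads in the control and 1.15% to 2.03% in the G libraries. That difference enters shares of the gene but not the ECT2 exon share, since none of these ECT2 rows is a reference isoform.

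**Figure D3:**
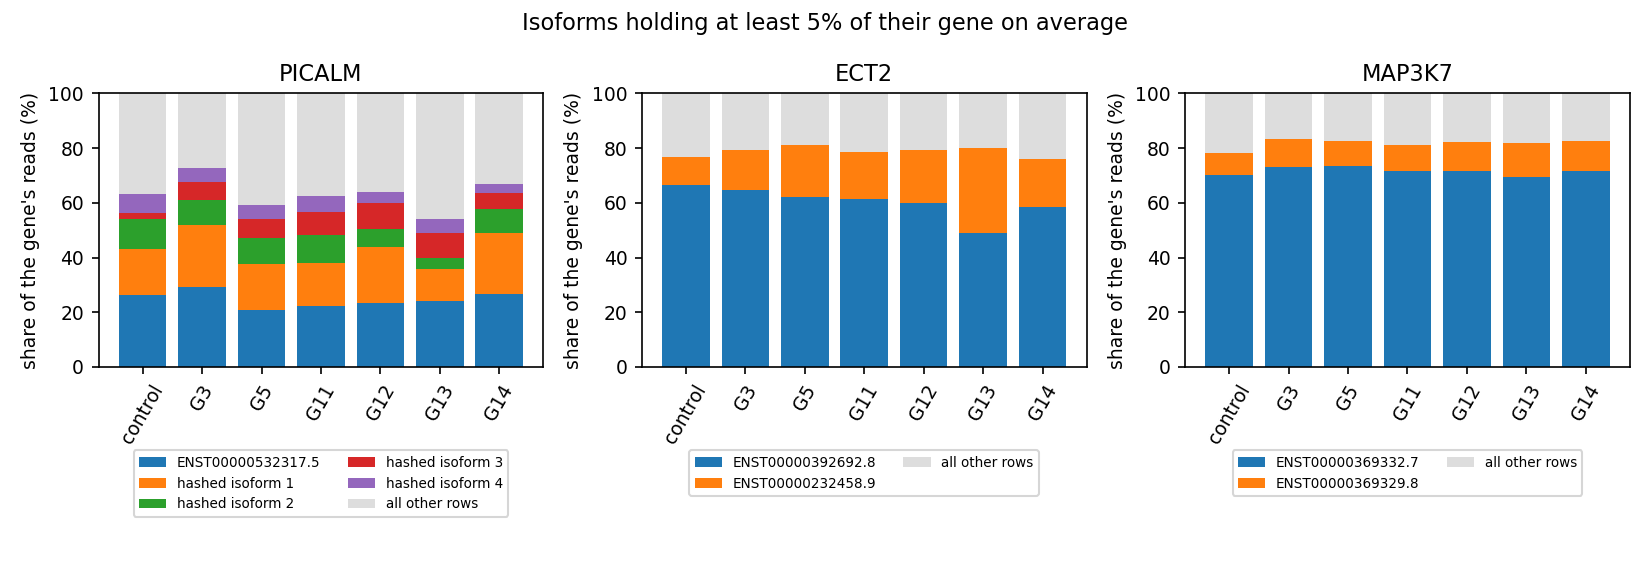
Share of each gene's reads (y axis, percent) held by the isoforms with at least 5% of the gene on average, in the 7 libraries (x axis); grey is all other rows. ENST00000232458.9 of ECT2 widens from 10.1% in the control to 31.0% in G13, while ENST00000369332.7 of MAP3K7 holds 69.6% to 73.6% in every library and PICALM is split over 5 isoforms.

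The MAP3K7 exon differed in the other direction and by much less. Most MAP3K7 RNA lacks the 81-nt exon: ENST00000369332.7, which skips it, held 69.6% to 73.6% of the reads of every library, and ENST00000369329.8, which holds it, held 7.90% to 12.2%. The exon was held by 136 of 1338 reads in the control, or 10.2% (8.66 to 11.9). The share was 10.9% in G5 (9.75 to 12.1), 11.9% in G11 (10.6 to 13.4), 12.1% in G3 (10.7 to 13.6), 12.8% in G12 (11.5 to 14.2), 13.2% in G14 (11.95 to 14.6) and 14.8% in G13 (286 of 1931 reads, 13.3 to 16.5). All 6 G libraries were above the control, and neighbours in this order had overlapping intervals throughout. The intervals of G13 and of G14 lay above that of the control, while those of G3, G5, G11 and G12 overlapped it. A control below all 6 G libraries was seen for 22.0% of the cassette exons, and a share at least 10 points above the control, which the MAP3K7 exon reached in no library, for 0.809% in G12, 0.873% in G3, 0.970% in G5, 1.04% in each of G11 and G13, and 1.54% in G14. The difference in G13 was 4.65 points, and 2.83 points against the median of the other 6 libraries.

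In level, ENST00000369329.8 had 7.86 TPM in the control, and the G libraries ran from 10.96 (G5) to 15.1 TPM (G14). Its ratio to the control was lowest in G5, at 140% (113 to 173), and highest in G14, at 192% (156 to 237). ENST00000369332.7 was at 69.99 TPM in the control, 70.5 TPM in G13 and 99.3 TPM in G14, and its ratio to the control ran from 101% in G13 (93.4 to 109) to 142% in G14 (132 to 153). In G13, then, the form with the exon was higher than the control in TPM, at 157% (127 to 194), and the form without it was level within counting error. This too depends on the scaling. With a length and GC trend removed, the log2 ratio of the MAP3K7 total in G13 went from 0.028 to -0.155.

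A second MAP3K7 exon, the coding exon of 116 nt at chr6:90518447-90518562, is skipped by ENST00000369325.7 and ENST00000369327.7. Its length is not a multiple of 3. It was held by 97.8% of reads in the control (96.8 to 98.4) and by 96.6% (G11) to 98.2% (G14) in the G libraries, all with intervals that overlapped that of the control. Another 8 MAP3K7 reference IDs have no exons in GENCODE 29 and enter no exon share. Of these the most abundant, ENST00000700583.1, held 2.27% of the reads in the control and 1.66% to 3.08% in the G libraries. By end position, 76.5% of MAP3K7 reads of the control ended at chr6:90513572-90513583 and 15.2% (13.6 to 17.0) about 2 kb upstream at chr6:90515634-90515784. The latter share was 11.8% to 13.2% in the G libraries. It pools 74 rows, and only rows with a control read are listed. Rows with 1 control read made up 3.41% of MAP3K7 reads in the control and 0.822% to 1.73% in the G libraries. Their part in this difference was not tested. ENST00000369329.8, the main form with the 81-nt exon, is the only row of the gene that ends at chr6:90515297. ENST00000369325.7 also holds the exon but ends at chr6:90515634, with 4 reads in the control and 5 to 12 in each G library. The exons of the hashed isoforms are not given, so the ends that go with the exon are known in part only. Whether the printed ends of a reference isoform come from reads or from an annotation is not given in the sources used here.

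PICALM was read less deeply, with 293 to 518 reads per library, and its reads were spread over more forms. The 4 reference isoforms held only 23.3% to 30.8% of them. The 24-nt exon, which ENST00000532317.5 holds and the other 3 skip, was held by 83 of 88 reads in the control, or 94.3% (87.4 to 97.5). The share was 95.1% in G3 (135 of 142), 92.3% in G12 (72 of 78), 92.1% in G14 (139 of 151), 90.0% in G5 (90 of 100), 88.5% in G11 (69 of 78) and 85.5% in G13 (71 of 83, 76.4 to 91.5). Every G library had an interval that overlapped that of the control, so at this depth the intervals separate none of them from it. Overlap of intervals is not a test of a difference, and the differences were not tested. As for the ECT2 exon, the lowest share was that of G13. A further PICALM coding exon, of 129 or 150 nt at chr11:85990250-85990399 depending on its 5′ edge, is skipped by ENST00000532317.5 and ENST00000528398.5. The 150-nt form rests on 1 read in the control and 6 to 9 in each G library, and the 129-nt form on 3 reads in the control and 0 or 1 in each G library. The 150-nt form is held by ENST00000393346.8 alone, which also skips the 24-nt exon, so both results rest partly on the same reads. In G13 it gave 7 of the 12 reads that skip the 24-nt exon. ENST00000393346.8 and ENST00000528398.5 had 1 control read each, so the listing rule also bears on the share of the 24-nt exon.

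Isoforms holding at least 5% of PICALM numbered 5, of which 4 are hashed. ENST00000532317.5 held 26.2% in the control (21.6 to 31.3) and 21.0% to 29.3% in the G libraries. The PICALM hashed isoform 3 (chr11:85957179-86069102) held 2.21% in the control (7 of 317 reads, 1.07 to 4.49) and 5.98% (G14) to 9.39% (G12) in the G libraries. Its intervals in G3, G5, G11, G12 and G13 lay above that of the control. The PICALM hashed isoform 2 (chr11:85957452-86069103) held 11.04% in the control (8.05 to 14.97) and was lowest in G13, at 4.10% (2.36 to 7.02). PICALM hashed isoforms 1 and 4 held 17.0% and 6.94% in the control, and their G library intervals overlapped those of the control.

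The 5′ ends of PICALM reads also varied. Most started at chr11:86068795-86069107, 86.8% in the control (82.6 to 90.0), 96.5% in G3 (94.4 to 97.9) and 75.4% in G13 (70.2 to 80.0). A second group of 9 isoforms started at chr11:86031557-86031614, at the 5′ edge of the second exon of ENST00000532317.5. It held 7.89% of the reads in the control (5.40 to 11.4), 2.60% in G3 (1.495 to 4.49), 8.39% in G5, 11.97% in G14, 13.9% in G12, 14.8% in G11 (11.3 to 19.2) and 17.4% in G13 (13.5 to 22.2). G3 was below the control and G13 above it without overlap of the intervals. Reads that lost their 5′ end and reads from an internal start cannot be told apart in this table.

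The usage distance sums such differences over all isoforms of a gene: it is 0 when all shares equal those of the control and 1 when no isoform is shared. The distance of ECT2 was smallest in G3 (0.0786) and largest in G13 (0.291), with G5 at 0.119, G11 at 0.128, G12 at 0.134 and G14 at 0.144. The median of all 7877 genes with a mean of at least 5 TPM was 0.0633 in G3 and 0.0730 in G13. ECT2 reached 0.2 in G13 alone, where 14.8% of the genes did. In the other libraries 9.57% (G3), 9.25% (G5), 10.8% (G11), 11.1% (G12) and 14.6% (G14) of the genes did. MAP3K7 lay between 0.0610 (G12) and 0.0806 (G3) in the 6 G libraries, near the median of all genes. PICALM lay between 0.215 (G3) and 0.312 (G13), at or above 0.2 in all 6. This was true of 5.74% of all genes compared, and of 8.70% of the genes with a mean of 10 to 30 TPM, a range around that of PICALM (17.9 TPM) that was chosen after seeing the data. Library by library, the genes in that range reached 0.2 in 14.5% (G3), 13.3% (G5), 15.8% (G11), 16.8% (G12), 21.6% (G13) and 21.1% (G14) of cases. The listing rule bears on the distance of PICALM. All 59 PICALM rows have control reads, while 27 (G11) to 35 (G5) had reads in a G library. The 33 rows with 1 control read held 10.4% of PICALM reads in the control and 6.94% (G3) to 13.3% (G13) in the G libraries. Their part in the distance was not tested. Counting only isoforms with a mean of at least 1 TPM lowered the median distance of PICALM from 0.227 to 0.105, that of ECT2 from 0.131 to 0.0996 and that of MAP3K7 from 0.0669 to 0.0329. In RBFOX2 itself, the target of the guides, the distance ran from 0.286 (G5) to 0.477 (G13).

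The RBFOX2 total and the ECT2 exon share did not follow the same order. G3, with the lowest RBFOX2 total (39.2% of the control), had the highest ECT2 exon share of the G libraries, 80.7%. G14, where the RBFOX2 total was 98.6% of the control, had 75.7%. G13 was low in both, at 52.2% and 59.5%. For MAP3K7, G3 and G14 had exon shares of 12.1% and 13.2%, and G13 had the highest, 14.8%. For the PICALM 24-nt exon the shares were 95.1% in G3, 92.1% in G14 and 85.5% in G13. The RBFOX2 total is a level of RNA and not of protein, and its relation to the exon shares was not tested.

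**Figure D4:**
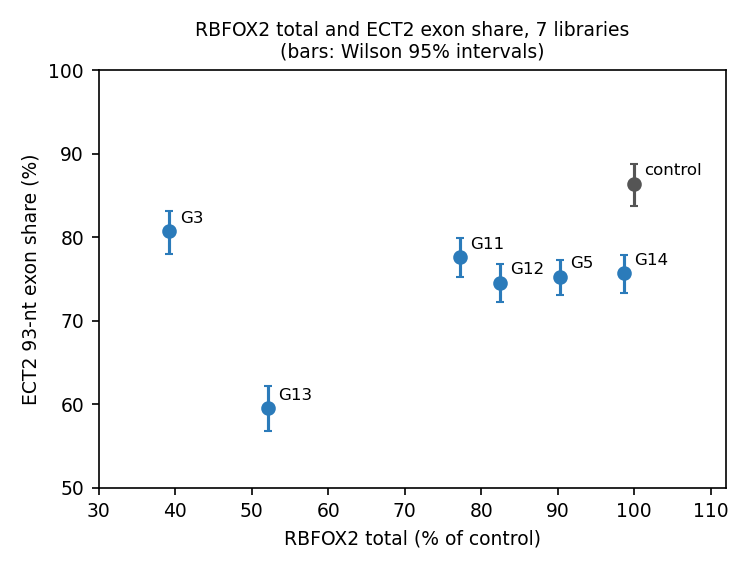
RBFOX2 total (x axis, percent of the control) against the share of ECT2 reads holding the 93-nt exon (y axis, percent, starting at 50, with Wilson 95% intervals) in the 7 libraries. G3 has the lowest RBFOX2 total (39.2%) and an ECT2 exon share of 80.7%, while G13 lies at 52.2% and 59.5%.

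Gene totals differed from the control by less than 2-fold in all 18 comparisons of the 3 genes. Of the 7877 genes, 7.03% differed 2-fold in G3 and 22.8% in G14, with G12 at 9.33%, G5 at 10.7%, G11 at 11.1% and G13 at 15.6%. The ECT2 total was lowest in the control (55.2 TPM) and highest in G14 (88.1 TPM), with G3 at 62.0, G12 at 67.1, G13 at 68.5, G11 at 73.4 and G5 at 75.7 TPM. It was thus above the control in all 6 G libraries, from 112.2% of the control in G3 (exact interval 103 to 123) to 159% in G14 (147 to 173). The MAP3K7 total was also lowest in the control (99.5 TPM) and highest in G14 (138.6 TPM), with G13 at 101.4, G12 at 103.7, G11 at 119.3, G3 at 120.2 and G5 at 122.8 TPM. Its ratio was 139% in G14 (131 to 148), between 120% and 123% in G3, G5 and G11, and within counting error of the control in G12 (98.1 to 111) and G13 (95.7 to 109).

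PICALM went both ways, with 18.9 TPM in the control against 25.8 (G3) and 24.7 (G14) above it, and 16.9 (G5), 14.9 (G11), 12.9 (G13) and 11.6 (G12) below it. It was 137% of the control in G3 (118 to 158) and 61.4% in G12 (52.3 to 72.0), and in G5 its interval (77.1 to 104) included the control. A control below all 6 G libraries, as for ECT2 and MAP3K7, was found for 21.1% of the genes, and a control above all 6 for 20.5%. The 3 genes have long transcripts. Among the 1547 genes of similar length to ECT2 and PICALM the median log2 ratio ran from -0.15 (G13) to 0.27 (G5), and among the 1547 longest genes, which include MAP3K7, from -0.20 (G13) to 0.22 (G5). With a trend of length and GC content removed, a setting added after seeing the data, the median log2 ratio over the G libraries went from 0.36 to 0.13 for ECT2, from 0.27 to 0.01 for MAP3K7 and from -0.24 to -0.50 for PICALM. Without G11, G12 or G13 the PICALM median was -0.16 before this correction. In bulk RNA, fewer expressing cells and less RNA per cell cannot be told apart.

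**Figure D5:**
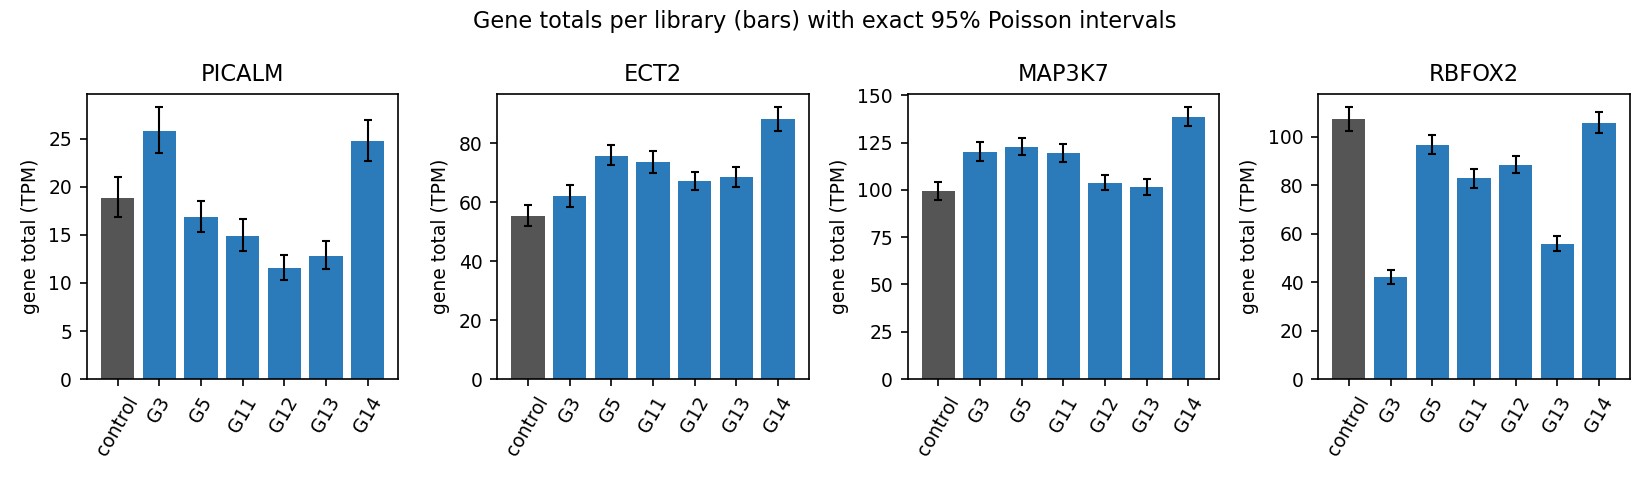
Gene totals of PICALM, ECT2, MAP3K7 and RBFOX2 (y axis, TPM, from 0) in the control (grey) and the 6 G libraries (blue, x axis), with exact 95% Poisson intervals for counting error. ECT2 and MAP3K7 are lowest in the control (55.2 and 99.5 TPM), PICALM is highest in G3 (25.8 TPM) and RBFOX2 is lowest in G3 (42.1 TPM).

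The genes with the most similar levels across the 7 libraries were found by the root-mean-square distance between log2 profiles, each centred on its own mean, among genes with a mean of at least 10 TPM. For ECT2 they were ACTL6A (distance 0.02), RPA1 (0.03) and ADAM10 (0.03), against a median of 0.32 over 6618 genes. For MAP3K7 they were ACTR3B, AIDA and RAB6A, each at 0.03, against a median of 0.29. For PICALM they were ATRIP (0.09), WTAP (0.10) and PTPN9 (0.11), against a median of 0.45. WTAP, a subunit of the RNA adenosine methyltransferase complex, had 97.8 TPM in the control, 137.9 in G3, 62.4 in G12 and 114.5 in G14.

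Partners of the 3 genes were taken from lists of pathway genes. Of 16 cytokinesis genes listed with ECT2, 14 were compared. At most 1 of them was 2-fold lower and at most 1 was 2-fold higher in any G library, beside 5.14% (G3) to 18.9% (G14) of all genes lower and 0.533% (G5) to 3.97% (G14) higher. Their median log2 ratio ran from -0.06 (G12) to 0.37 (G5), beside medians of -0.16 and 0.14 over all genes. None of the 14 was 2-fold from the control in the same direction in 4 or more G libraries. The share of all genes that met this rule was not computed, so nothing is read from that count. RACGAP1, which binds ECT2 in the centralspindlin complex, had a median log2 ratio of 0.73, and RHOA, the GTPase that ECT2 activates, had -0.27.

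Of 20 genes of the TAK1 pathway, 16 were compared, with between 0 (G3 and G5) and 5 (G13) at least 2-fold lower, beside 14.6% of all genes lower in G13 and 10.1% (G5), 8.79% (G12) and 18.9% (G14) elsewhere. TRAF6, the ubiquitin ligase that acts upstream of TAK1, had 29.8 TPM in the control, 35.6 TPM in G3 and 43.7 TPM in G5, against 65.4 (G11), 66.4 (G12), 78.2 (G13) and 95.1 TPM (G14). It was at least 2-fold higher in the last 4, where 0.724% (G11), 0.546% (G12), 1.04% (G13) and 3.97% (G14) of all genes were; the shares were 1.89% for G3 and 0.533% for G5. MAP2K7, a kinase that activates JNK, had 36.2 TPM in the control and more in G3 (52.8) and G5 (37.4), but 14.4 (G11), 7.50 (G12), 6.35 (G14) and 1.67 TPM (G13) in the other libraries. TAB1 and TAB2, which bind TAK1, had median log2 ratios of -0.34 and 0.31.

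Of 20 endocytosis genes listed with PICALM, 15 were compared, and between 1 (G3) and 6 (G11) were at least 2-fold lower, beside 5.14% and 10.4% of all genes. The median log2 ratio of the list was -0.75 in G13 and 0.30 in G3, beside -0.21 and 0.12 over all genes. CLTB, a clathrin light chain, had 20.4 TPM in the control, with G libraries from 5.20 (G14) to 11.5 TPM (G3). AP2A1, a large subunit of the AP-2 adaptor, had 31.8 TPM in the control, with G3 at 64.0 and G5 at 35.2, but G11 at 8.83, G12 at 5.32, G14 at 3.01 and G13 at 0.658 TPM. EPN1, an endocytic adaptor, went the same way, from 43.9 TPM in the control and 70.8 in G3 to 3.77 in G13. AP2S1, the small subunit of AP-2, had 184.1 TPM in the control, with G libraries from 58.9 (G14) to 122.1 TPM (G13). The heavy chain gene CLTC had a median log2 ratio of -0.23. Other listed genes were not lower, or only slightly. AP2M1, also of AP-2, had 1791 TPM in the control and from 1951 (G3) to 2415 TPM (G14) in the G libraries. The median log2 ratio was -0.08 for AP2A2, 0.07 for AP2B1, 0.01 for BIN1, 0.34 for EPS15L1, 0.33 for ITSN1 and 0.32 for DAB2. It was -0.30 for EPN2, -1.04 for CLTA and -1.13 for DNM2.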

How the data were processed

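Full-length reads of 7 libraries, 1 per group, were analysed. Per the labels' protocols, cDNA was joined into 8-fold arrays (MAS-Seq) and sequenced on the Revio system, and the arrays were split in software. The submitters' processing notes name minimap2 2.17 and GRCh38; the isoform caller, its filters and annotation are not given in the sources used here. The deposited table has for each isoform and library, per the file headers, its count of full-length reads and a TPM. Dividing a count by its library total returned the authors' TPM with a difference of at most 0.014, so TPM was recomputed that way, with no length term. Empty cells were read as 0, and 1 was added to starts.

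Isoforms were summed by Ensembl stem (14287 of 14294 stems had a symbol). Levels were compared as log2(TPM + 0.5), which understates ratios of low genes, over 7877 genes with a mean of at least 5 TPM. Exons came from GENCODE 29, matched by transcript stem, so versions can differ (ENST00000392692.8 against ENST00000392692.7 for ECT2). An exon share is the reads of reference isoforms holding an internal exon over those holding it or having it inside an intron. Intervals of shares are Wilson, those of ratios Clopper-Pearson. Whether row ends come from reads or an annotation is not given in the sources used here. Ends were grouped within 100 bases. The depth gave a floor of 3 reads, or 0.112 to 0.179 TPM.

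Named genes are the 3 members and RBFOX2, member isoforms with at least 5% of their gene or carrying a cassette exon, the 3 genes nearest in profile to each member, and pathway genes at least 2-fold from the control in 1 direction in 4 or more G libraries; other list genes were named for their known role. The members and lists were chosen with earlier results of these data known. The scripts were tested on simulated data. Python 3.11.15, pandas 2.3.3, NumPy 2.4.6, SciPy 1.17.1 and matplotlib 3.10.9 were used. Alternatives were other pseudocounts, scaling, reference, isoform filters and thresholds, each G library left out, and, chosen after seeing the data, a length and GC correction.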

Additional observations from a re-analysis of the deposited data

How the results depend on the processing

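No paired analysis was possible because each group is 1 library. When each G library was dropped in turn, the medians over the remaining ones lay between -11.15 and -10.75 points for the ECT2 93-nt exon, 1.90 and 2.61 for the MAP3K7 81-nt exon, -0.40 and -0.07 for the MAP3K7 116-nt exon, and -4.32 and -2.27 for the PICALM 24-nt exon. The median log2 ratio of the total then lay between -0.33 and -0.16 for PICALM, 0.31 and 0.41 for ECT2, and 0.26 and 0.27 for MAP3K7. The usage distances depended on the isoforms counted and on the reference. With isoforms of a mean of at least 1 TPM the medians were 0.105 for PICALM, 0.0996 for ECT2 and 0.0329 for MAP3K7, and with reference IDs only they were 0.0671 for PICALM, 0.109 for ECT2 and 0.0351 for MAP3K7. The median distance to the other 6 libraries was 0.195 for PICALM, 0.0770 for ECT2 and 0.0531 for MAP3K7. Gene totals depended on the reference: with the median of the other 6 libraries in place of the control, the median log2 ratio was 0.040 for ECT2 and 0.10 for MAP3K7, and that of ECT2 was negative in G3 (-0.19), G12 (-0.080) and G13 (-0.035). With length and GC trends removed it was -0.50 for PICALM, 0.13 for ECT2 and 0.011 for MAP3K7. The cause was not tested in any of these cases. Median-of-ratios scaling factors, on the log2 scale and relative to the control, ran from -0.16 (G13) to 0.04 (G5). A usage distance of at least 0.2 was reached by 754 genes in G3 and 1163 in G13, and by 177 and 352 among genes with a mean of at least 20 TPM. With no filter on low values the counts were 3516 and 3842, and at a distance of 0.1 they were 2540 and 3035. Genes 2-fold from the control numbered 554 in G3 and 1799 in G14, and 1657 and 3655 were 1.5-fold from it. Depth limits PICALM most: its exon share rests on 78 to 151 reads.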
